A study of Mus musculus with 12 samples.

Results

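The loci described here are the smallest targets of a mouse CpG island array, places where only 1 or 2 probes lie within reach of each other. Array probes on chr1 to chr19 (mm9) were joined into a locus wherever the gap to the next probe was at most 1000 bp, and loci of 1 or 2 probes were kept. They are called short loci below, and the rule did not use any measured ratio. Of 14177 loci, 1087 were short (7.67%), 346 of them with 1 probe and 741 with 2 probes. They held 1828 of the 85850 autosomal probes (2.13%), and the other 13090 loci, of 3 or more probes, held 84022.

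CpG islands are stretches of DNA rich in CpG dinucleotides that often cover promoters and, in mammalian cells, are mostly kept free of 5-methylcytosine (5mC). CpGs in the rest of the genome are sparse and are usually methylated. In methylated DNA immunoprecipitation (MeDIP), an antibody to 5mC pulls down single-stranded fragments, so that the signal depends on how many methylated CpGs a fragment carries as well as on the share of copies that are methylated.

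DNA methylation was measured by MeDIP in 4 lines of mouse embryonic stem (ES) cells that differ in their mitochondrial DNA (mtDNA). All lines descend from the *M. musculus* ES line CC9.3.1, itself made from an embryo of strain 129SvEv-Gpi1c(129S6), and share its chromosomes. Each was made by depleting CC9.3.1 cells of mitochondria and fusing them with cytoplasts from which the nucleus had been removed. The question was whether lines with the same chromosomes but other mtDNA differ in DNA methylation. CC9 mus carried *M. musculus* mtDNA of the parental genotype, CC9 spretus that of *M. spretus*, CC9 dunni that of *M. dunni* (named *M. terricolor* in the methods of the study) and CC9 pahari that of *M. pahari*. The last 3 are called divergent lines below. The labels give no drug treatment for any group. All were grown with leukaemia inhibitory factor on embryonic fibroblasts stopped with mitomycin C, and then for 48 h without these feeder cells. Each mtDNA was represented by 1 line, so mtDNA and line cannot be told apart, and carry-over of feeder DNA was not tested.

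Each line had 3 arrays, described by the submitters as biological replicates. On all 12 arrays Cy5 marked the precipitated DNA (IP) and Cy3 the input, with no exchange of the dyes, so dye and fraction cannot be told apart. The value given throughout is log2(IP/input) after centring each array on the median of its 88737 probes. A value of 0 is therefore the middle of the array, not an absence of methylation, and 2 is 4-fold above that middle.

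CC9 mus replicate 1 stood apart from the other arrays. The SD of its ratios over all probes was 0.53, against 1.85 and 2.01 in CC9 mus replicates 2 and 3 and 1.09 to 1.38 in the 9 arrays of the divergent lines. The arrays came from 8 slides scanned on 5 days, here grouped into 2 periods, earlier and later. The later period held the 3 CC9 mus arrays, scanned on a day of their own, and replicate 3 of each divergent line. CC9 mus and its scan day cannot be told apart, and a scan day is not a day of culture or extraction.

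Most probes of the short loci gave usable signal. The scanner software calls a spot well above background when its signal exceeds the local background beyond the error. The input of the short-locus probes met this on 88.8% to 99.4% of spots per array, against 92.7% to 99.8% in other loci. The IP met it on 79.4% to 96.4%, against 75.3% to 98.8%. Input reached this on all 12 arrays for 1599 of the 1828 probes (87.5%), against 91.5% of the probes in other loci. At most 12 short-locus probes were missing on an array as outlier spots, 25 were missing on at least 1 array, none was missing on all arrays of a line, and 2 were saturated on an array. Precision is limited by the number of arrays.

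Short loci had higher ratios than other loci on each array. The median ratio of the short-locus probes was 0.14, 0.82 and 1.07 on CC9 mus replicates 1, 2 and 3, and 0.49, 0.31 and 0.52 on those of CC9 spretus. The CC9 dunni replicates had 0.45, 0.43 and 0.27, and the CC9 pahari replicates 0.39, 0.36 and 0.55. Probes of other loci had medians between −0.04 and −0.0049, so every short-locus median lay above every median of the other loci. The difference, short minus other, was 0.70 ± 0.50 (SD, n = 3) in CC9 mus, 0.46 ± 0.12 in CC9 spretus, 0.46 ± 0.10 in CC9 pahari and 0.40 ± 0.10 in CC9 dunni. Over the 12 arrays it was 0.51 ± 0.26 and above 0 on 12 of 12 (exact permutation test exchanging the labels within each array, two-sided p = 0.000488, the smallest that 12 arrays can give). Without CC9 mus replicate 1 it was 0.54 (n = 11, p = 0.000977 in the same exact test). It was 0.43 ± 0.065 within the earlier scan period and 0.58 ± 0.36 within the later one (n = 6 each, exact p = 0.0312, the smallest for 6 arrays). The difference was smaller, at 0.22, with normexp, another background correction, and at 0.31 with loci joined over at most 500 bp (n = 12, exact permutation p = 0.000488 for each). This test, here and below, measures how repeatable a difference was over arrays for fixed probes, not its variation among loci. Arrays of the same line were counted as separate units.

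The distribution was shifted mostly in its upper part. On the 9 arrays of the divergent lines the 10th percentile of the short-locus ratios was −0.97 ± 0.25 (SD) against −1.16 ± 0.32 in other loci, whereas the 90th was 3.46 ± 0.39 against 1.31 ± 0.26. On CC9 mus replicates 1, 2 and 3 the 10th percentile was −0.50, −1.89 and −1.52 against −0.55, −2.41 and −1.91, and the 90th was 1.28, 3.79 and 4.53 against 0.66, 2.29 and 3.27. Among the divergent lines the 90th percentile of the short loci was 3.75 ± 0.51 in CC9 spretus, 3.31 ± 0.23 in CC9 pahari and 3.32 ± 0.34 in CC9 dunni (n = 3 each). The ratios were also more spread. Their SD within an array was 0.77, 2.18 and 2.35 on the CC9 mus replicates against 0.52, 1.83 and 2.00 in other loci, and 1.61 to 2.05 in the divergent lines against 1.06 to 1.36. The short loci had the larger SD on all 12 arrays.

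The share of probes above 2 was also larger in short loci than in other loci on every array. It was 4.54%, 29.6% and 38.8% on the CC9 mus replicates and 19.7%, 16.9% and 24.5% on those of CC9 spretus. It was 17.7%, 17.9% and 20.6% for CC9 dunni, and 16.1%, 16.0% and 23.9% for CC9 pahari. Other loci had 0.604%, 13.7% and 20.8% on the CC9 mus replicates and between 3.65% and 7.71% on the arrays of the divergent lines. The difference was 12.6 ± 7.57 percentage points in CC9 mus, 14.9 ± 1.86 in CC9 spretus, 13.7 ± 2.33 in CC9 pahari and 13.6 ± 1.25 in CC9 dunni (SD, n = 3). It was 13.7 ± 3.61 over the 12 arrays and above 0 on each (exact permutation p = 0.000488), and 14.6 without CC9 mus replicate 1 (n = 11, exact p = 0.000977). Within the earlier and later scan periods it was 13.1 ± 0.975 and 14.3 ± 5.18 points (n = 6 each, exact p = 0.0312). The difference fell to 7.40 points with normexp and to 9.60 with loci joined over at most 500 bp (n = 12, exact permutation p = 0.000488 for each). Short-locus probes were above 2 at a median of 3.65 times the share of other loci, from 1.86 times on CC9 mus replicate 3 to 7.52 times on CC9 mus replicate 1.

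Ratios below −2 were rarer than ratios above 2 in the short loci, and rarer than in other loci on 10 of 12 arrays. They made up 0%, 8.87% and 4.79% of the short-locus probes on the CC9 mus replicates against 0.0071%, 15.2% and 8.74% in other loci. On the CC9 spretus replicates they made up 5.03%, 1.15% and 0.383%, on those of CC9 dunni 2.90%, 1.91% and 0.0547%, and on those of CC9 pahari 0.875%, 1.26% and 0.220%. The exceptions, with a larger share in the short loci, were CC9 spretus replicate 3 (by 0.189 points) and CC9 pahari replicate 2 (by 0.135 points). The mean difference was −1.27 ± 2.02 points (n = 12, exact permutation p = 0.0122), −1.38 without CC9 mus replicate 1 (exact p = 0.0127 over 11 arrays) and −0.808 without CC9 mus replicate 2 (exact p = 0.0244 over 11 arrays). Within the scan periods the test was not passed, with −0.794 points in the earlier one (exact p = 0.0938) and −1.74 in the later one (exact p = 0.156). Nor was it passed with loci joined over at most 500 bp (−0.868 points, exact p = 0.0542) or with normexp, another background correction (−0.394 points, exact p = 0.145). When each locus was represented by the mean of its probes the difference turned to 0.709 points (exact p = 0.00195), and the cause was not tested.

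Up to 10 probes, the ratios were higher in loci of fewer probes. Over the 12 arrays the median averaged 0.93 ± 0.45 (SD) in loci of 1 probe, 0.40 ± 0.22 in loci of 2, 0.25 ± 0.16 in loci of 3, 0.084 ± 0.050 in loci of 4 or 5 and −0.092 ± 0.066 in loci of 6 to 10. The share above 2 was 30.8% ± 10.1, 18.1% ± 7.97, 14.6% ± 7.34, 10.1% ± 5.93 and 4.89% ± 4.66. Loci of more probes did not continue this trend, with medians of −0.047 ± 0.042 for 11 to 20 probes and −0.0072 ± 0.19 for over 20, and shares above 2 of 4.94% ± 5.91 and 5.55% ± 7.98. Each step from 1 probe to 4 or 5 probes was downwards on 12 of 12 arrays for both measures. Loci of 1 probe ranged from a median of 0.27 on the lowest array to 2.06 on the highest. The classes lie on a gradient, and loci of 2 probes alone still differed from those of 3 or more by 0.42 in the median and 11.3 points in the share above 2 (n = 12, exact permutation p = 0.000488 for each).

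The edges of the rule differed in how the values changed. With each probe averaged over the 12 arrays, the 741 loci of 2 probes, just inside the size limit, had a median of 0.36 and 16.9% of probes above 2, and the 1822 loci of 3 probes, just outside it, had 0.20 and 12.7%. The 29 loci of 2 probes that were joined over more than 500 bp had a median of 0.28 and 10.3% above 2, against 0.36 and 17.1% for the 712 joined over at most 500 bp. The 53 short loci whose nearest locus lay at most 1500 bp away, and which a somewhat longer join would have absorbed, had a median of −0.041 and 5.81% above 2, well below the 1034 more distant ones with 0.48 and 20.1%.

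Short loci had few probes but were not farther from their neighbours than other loci. The distance to the nearest locus had a median of 22577 bp, against 26917 bp for other loci, and the loci of 2 probes were 110 to 1047 bp long (median 230 bp). In the class nearest to another locus the median of the short loci was not above that of other loci. The 85 short loci with a neighbour at most 2000 bp away had a median ratio of 0.13 and 7.75% of probes above 2, against 0.18 and 7.01% in other loci at this distance. In the successive classes of up to 5000, up to 20000 and up to 100000 bp and beyond, the medians of the short loci were 0.28, 0.41, 0.41 and 0.87, against 0.13, −0.058, −0.10 and −0.0089 in other loci. The shares above 2 were 19.8%, 18.4%, 19.8% and 26.6%, against 6.47%, 6.27%, 3.80% and 3.14%. The values did not rise step by step within both sizes. Single probes had medians of −0.20, 1.01, 0.89, 0.97 and 1.62 from the nearest to the farthest class (28, 30, 96, 132 and 60 loci), and loci of 2 probes 0.20, 0.16, 0.31, 0.35 and 0.68. The farthest class had the highest median at both sizes.

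Short loci were spread over all 19 autosomes, from 23 loci on chr16 to 102 on chr7. With each probe averaged over the arrays, their share above 2 exceeded that of other loci on 19 of 19 chromosomes, and their median on 18. The exception was chr19, where the 31 short loci had a median of −0.19 against −0.036. On chr13 and chr15 the medians differed by 0.054 and 0.084. The widest differences were on chr12 (0.81), chr3 (0.77) and chr4 (0.76). The share above 2 was highest on chr18 (29.6% of 54 probes) and chr3 (29.0% of 93) and lowest on chr16 (12.2% of 41).

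Short-locus probes had dimmer input than other probes on all 12 arrays and brighter IP on 11, the exception being CC9 mus replicate 1 (IP at −0.013 against 0.023). Centred on the array median on the log2 scale, the input signal was −0.18 ± 0.041 (SD, n = 12 arrays) in short loci and 0.026 ± 0.0045 in others. The IP signal was 0.41 ± 0.21 and 0.0048 ± 0.0076. In loci of 1 probe the input was at −0.50 ± 0.10 and the IP at 0.60 ± 0.33, and in loci of 2 probes they were at −0.11 ± 0.036 and 0.36 ± 0.19. Probes of 45 bp, the shortest on the array, made up 67.1% of the short-locus probes and 74.1% of the others, and probes of 60 bp, the longest, made up 6.07% and 3.05%.

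The difference from other loci was present at each level of input. With all autosomal probes divided into 5 classes of equal size by mean input, the lowest class held 26.6% of the short-locus probes and 19.9% of the others. From the dimmest to the brightest class, the median of the short loci exceeded that of others by 0.84 ± 0.38, 0.52 ± 0.24, 0.41 ± 0.19, 0.33 ± 0.24 and 0.39 ± 0.21 (SD, n = 12 arrays). The share above 2 was larger by 19.5, 16.6, 9.88, 8.88 and 9.81 points. Both were larger on 12 of 12 arrays in every class. Among probes of 45 bp alone the differences were 0.42 ± 0.22 and 11.7 ± 3.27 points, and among longer probes 0.84 ± 0.40 and 17.7 ± 4.67 points. How much of the difference comes from input signal, probe length or base composition was not tested.

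When the 3 arrays of a line were averaged, 437 short-locus probes were above 2 in CC9 mus (23.9%, against 9.39% of all 88737 probes). The CC9 mus count was 637 (34.8%, against 17.7%) without replicate 1 and 288 (15.8%, against 4.28%) without replicate 3. The counts were 355 in CC9 spretus (19.4%, against 5.16%), 340 in CC9 pahari (18.6%, against 4.71%) and 343 in CC9 dunni (18.8%, against 5.32%). They lay in 320, 241, 237 and 240 of the 1087 loci, in the same order (29.4%, 22.2%, 21.8% and 22.1%). Loci of 3 or more probes were not counted in this way, so these counts of loci have no background. All 3 arrays of the line were above 2 for 80 of the CC9 mus probes, where replicate 1 had the narrow spread, and for 293, 259 and 278 of those of the divergent lines. These were 4.38%, 16.0%, 14.2% and 15.2% of the short-locus probes, against 0.559%, 3.55%, 3.25% and 3.73% of the probes of other loci. Both CC9 mus replicates 2 and 3 were above 2 for 468 probes (25.6%, against 9.84% in other loci). In each line the call was more frequent in loci of 1 probe (36.1% in CC9 mus and 29.5% in each divergent line) than in loci of 2 (21.1% in CC9 mus, 17.1% in CC9 spretus, 16.1% in CC9 pahari and 16.3% in CC9 dunni).

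Line means below −2 were few. There were 26 in CC9 mus (1.42%, against 3.25% of all probes), 16 in CC9 spretus (0.875%, against 1.08%), 3 in CC9 pahari (0.164%, against 0.124%) and 13 in CC9 dunni (0.711%, against 0.586%). In the divergent lines these shares were near the background. Only 1 of these calls, in CC9 spretus, had all 3 arrays of its line below −2 (0.0547%, against 0.0309% of the probes of other loci). The number was 0 in CC9 mus, CC9 pahari and CC9 dunni, against 0%, 0.00595% and 0.00238% of the probes of other loci. At least 1 line mean was below −2 for 48 probes (2.63%, against 4.47%). These counts depended on single arrays. That of CC9 mus was 108 (5.91%, against 10.8%) without replicate 1 and 6 (0.328%, against 0.779%) without replicate 2, and the count in at least 1 line then became 123 (6.73%, against 11.6%) and 31 (1.70%, against 2.25%). On leaving out replicates 1, 2 and 3 in turn, the CC9 spretus count was 1, 25 and 47 (0.0547%, 1.37% and 2.57%, against 0.236%, 1.59% and 3.46% of all probes). That of CC9 pahari was 6, 4 and 11 (0.328%, 0.219% and 0.602%, against 0.199%, 0.157% and 0.533%), and that of CC9 dunni 4, 6 and 32 (0.219%, 0.328% and 1.75%, against 0.250%, 0.248% and 2.74%).

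High ratios in short loci were often shared by the lines. At least 1 line mean was above 2 for 509 probes (27.8%, against 10.8% of all probes), and all 4 were for 259 (14.2%, against 3.58%). Thus 50.9% of the called short-locus probes were called in all 4 lines, against 31.8% of the called probes in other loci. A further 72 were called in 3 lines (3.94%, against 0.978% of the probes of other loci), 45 in 2 (2.46%, against 0.914%) and 133 in 1 (7.28%, against 5.09%). Of the last, 107 were called in CC9 mus (5.85%, against 4.50% of all probes), 14 in CC9 dunni (0.766%, against 0.330%), 7 in CC9 spretus (0.383%, against 0.145%) and 5 in CC9 pahari (0.274%, against 0.185%). With CC9 mus replicate 1 left out, 658 probes were called in at least 1 line (36.0%, against 18.1% of all probes) and 286 in all 4 (15.6%, against 3.90%). The calls in CC9 mus alone then numbered 256 (14.0%, against 11.8%), whereas they numbered 36 (1.97%, against 1.29%) with replicate 3 left out. No array was above 2 for 1021 short-locus probes (55.9%), against 74.1% of the probes of other loci.

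A core of 69 probes in 52 short loci was above 2 on all 12 arrays (3.77%, against 0.578% of all probes). They were 15.0% of the 459 autosomal probes with this pattern, although short loci held 2.13% of the autosomal probes. CC9 mus replicate 1 limited this count, and on the 11 other arrays 207 probes were above 2 throughout (11.3%, against 2.70%). The 69 probes comprised 26 single probes and 43 probes of 2-probe loci, of which 17 loci had both probes and 9 had 1. They were on 18 chromosomes, their nearest locus was a median of 45352 bp away, and 47.8% were of 45 bp, against 67.8% of the other short-locus probes. Their input was dimmer, with a median of −0.81 against −0.15, and it was well above background on all 12 arrays for 56 of them (81.2%, against 87.7%). No short-locus probe was below −2 on all 12 arrays, and neither was any probe of the array.

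The loci with the steadiest high ratios were taken from the 859 short loci whose probes all had input well above background on 12 arrays. In 35 of these the locus ratio, the mean over its probes, was above 2 on every array (4.07%), against 47 of the 7738 loci of 3 or more probes that met the same condition (0.607%). The locus ratio averaged more probes in the latter. The single probe at chr3:121474049-121474102 had the highest minimum. It read 3.78, 7.79 and 5.85 in CC9 mus, 3.62, 3.52 and 6.35 in CC9 spretus, 4.36, 4.33 and 6.58 in CC9 pahari, and 3.84, 3.87 and 5.07 in CC9 dunni. Its lowest array was thus 11.5-fold above the array median, and in each divergent line replicate 3, of the later scan period, was the highest.

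The 2 probes of chr15:98267850-98268187 averaged 3.39, 7.22 and 5.39 in CC9 mus and 4.46 to 6.95 in the divergent lines. The probe at chr11:6347512-6347565 had its lowest value, 3.30, in CC9 dunni replicate 2, a median of 4.40 and its highest value, 7.29, in CC9 mus replicate 2. The highest median of the named loci, 6.92, was that of the probe at chr9:99394814-99394872, which read 3.25, 6.68 and 8.16 in CC9 mus and 6.34 to 7.17 in the divergent lines. There CC9 mus spanned the values of the other lines, and CC9 dunni varied little between replicates (7.07 ± 0.026, SD, n = 3). Ratios at chr17:69736823-69736879 ran from 3.16 to 7.11 (median 5.08), and at chr6:3151637-3151681 from 2.96 to 6.81 (median 4.67), with the lowest value in CC9 mus replicate 1 and the highest in CC9 mus replicate 2 at both. The chr6 probe was the most remote of the 6, 561778 bp from the nearest locus. IP was well above background on all 12 arrays at these 6 loci.

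None of these loci was as steadily low. Of the 859 short loci, 106 were below 0 on all 12 arrays (12.3%, against 18.3% of the 7738 longer loci), and 0 of the short and 0 of the longer loci were below −1 on all. CC9 mus replicate 1, which had the narrow spread, limited the count below −1. Its 10th percentile was −0.50 over short-locus probes and −0.55 over probes of other loci. The lowest maximum was at the 2-probe locus chr2:132073185-132073607, with −0.65, −2.61 and −2.12 in CC9 mus, −2.65, −1.71 and −1.19 in CC9 spretus, −1.14, −1.64 and −1.22 in CC9 pahari, and −2.37, −2.21 and −0.63 in CC9 dunni. IP there was well above background for both probes on 3 arrays, so the values on the others rest on dim IP and are uncertain. The same holds for chr10:31033252-31033572 (−2.47 to −0.52, 4 arrays), chr11:87256231-87256287 (−2.73 to −0.52, 6 arrays) and chr3:96291113-96291171 (−1.94 to −0.51, 9 arrays).

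IP was well above background on 11 arrays at chr2:126896255-126896407 and on 12 at chr10:81546063-81546296. The chr2 locus read −0.86, −2.98 and −2.38 in CC9 mus and −1.18 to −0.62 in the divergent lines. The chr10 locus read −0.62, −2.02 and −2.03 in CC9 mus and had its highest value, −0.49, in CC9 dunni replicate 3. At both, CC9 mus replicates 2 and 3 were below the other 10 arrays. Over all probes these replicates also had a wider spread than the other 10 arrays (SD 1.85 and 2.01). How many other loci had the same order was not counted.

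The probes of a 2-probe locus usually gave like values. With probes averaged over the 12 arrays, both were above 2 in 112 of the 741 loci (15.1%), 1 was in 26 (3.51%) and neither was in 603. The median difference between the probes was 0.56, and Pearson's r across loci was 0.818 (n = 741 loci, which share arrays and are not replicates). The difference widened over 4 successive classes of gap, from 0.41 in the 270 loci with a gap of up to 100 bp to 0.60 at up to 200 bp, 0.65 at up to 500 bp and 0.85 in the 29 loci with a longer gap. Neighbouring probes in loci of 3 or more, at a shorter median gap of 74 bp against 138 bp, differed by a median of 0.58 (r = 0.610). In loci of 3 probes alone, at a median gap of 95 bp, they differed by 0.52 (r = 0.802), near the values of the 2-probe loci. How often both neighbours were above 2 in longer loci was not counted.

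The widest disagreement was at chr13:47106234-47106572. The probe at chr13:47106234-47106282 read 1.95 in CC9 mus replicate 1 and 4.69 to 5.60 on the other 11 arrays. The probe at chr13:47106513-47106572 read −1.25 to 2.76 (median 1.54), but its input was not well above background on any array. At chr19:3907073-3907355, in contrast, both probes had input well above background on 12 arrays. The probe at chr19:3907073-3907117 read 0.65 to 3.67 (median 1.35), and that at chr19:3907300-3907355, 182 bp away, −3.35 to −0.13 (median −1.94). The IP of the latter was well above background on 5 arrays. The ranges of the probes did not overlap.

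The correlation between arrays was higher over the short loci than over other loci. Pearson's r across short-locus probes was 0.749 to 0.967 for the 12 pairs of arrays of the same line and 0.736 to 0.959 for the 54 pairs from different lines. It was higher than across the probes of other loci in 66 of 66 pairs, where r ran from 0.598 to 0.932. Because r rises with the spread of the ratios, which was wider in short loci, it does not show that arrays were closer there. The SD of the difference between arrays of a pair was larger over the short loci in 55 of the 66 pairs, with a median of 0.97 against 0.85. Probes are not independent replicates, and no p is given.

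The difference between short and other loci was compared between CC9 mus and the divergent lines, with 3 arrays against 9. The difference in medians was 0.14, 0.86 and 1.11 on the CC9 mus replicates and 0.28 to 0.58 on the 9 others. CC9 mus thus had the lowest and the 2 highest values, and the means differed by 0.26 (exact permutation p = 0.109 over 220 choices of 3 arrays, two-sided). Without CC9 mus replicate 1 the difference was 0.54 (n = 2 and 9, exact p = 0.0182, the smallest that 55 choices can give). Without CC9 mus replicate 3 it was 0.062 (exact p = 0.636). With each array scaled to the same spread it was −0.036 (exact p = 0.536), and with each locus represented by the mean of its probes it was 0.34 and passed the test (exact p = 0.0455). Within the later scan period, with 3 arrays against 3, it was 0.24 (exact p = 0.5), where no p under 0.1 can be reached.

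For the share above 2, the difference from other loci was 3.94, 15.8 and 18.0 points in CC9 mus and 12.3 to 16.7 points in the divergent lines. The means differed by −1.46 points (exact permutation p = 0.568). Without CC9 mus replicate 1 this turned to 2.86 points (exact p = 0.0545), and with arrays of the same spread it was −4.88 points (exact p = 0.00455, the smallest possible). With normexp it was 0.172 points (exact p = 0.918). Within the later period it was −3.45 points (exact p = 0.8). A difference between CC9 mus and the divergent lines in the behaviour of short loci thus changed in direction or call with the array left out, the scaling of the spread, the background correction and the use of locus means.

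Single probes were compared between lines in limma, fitted to all 88737 probes with adjusted p-values over all of them. Between CC9 mus and the mean of the divergent lines, 70 short-locus probes in 65 loci passed an adjusted p of 0.05 (3.83%, against 4.57% of all probes). Of these, 37 were higher in CC9 mus (2.02%, against 2.76%) and 33 lower (1.81%, against 1.81%). For 49 of the 70 the 3 CC9 mus arrays lay beyond all 9 others (2.68%, against 3.30%). These shares were near or below the background of the same fit. At an unadjusted p of 0.05 there were 462 (25.3%, against 28.9%). The smallest adjusted p was 0.0405.

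Of the alternatives, some kept these calls and others removed them. With probes of dim input left out there were 85 calls, 64 of them among the 70. They were 5.32% of the short-locus probes kept, against 6.21% of all the probes kept. With the deposited ratios there were 75 (4.10%, against 4.80% of all 88737 probes), which included all 70. With normexp there was 1 call (0.0547%, against 0.0270%), also among the 70. With replicate number as a block there were 146 (7.99%, against 8.42%), which included all 70. In limma none was left with slide as a block (0 calls, 398 at an unadjusted p of 0.05, or 21.8% against 25.3% of all probes), with scan period as a block (0 calls, 382 unadjusted, 20.9% against 21.4%), or within the later scan period (0 calls, 153 unadjusted, 8.37% against 8.66%). Leaving out 1 array of a divergent line gave 0 calls for each of the 9 (384 to 450 unadjusted, or 21.0% to 24.6%, against 24.2% to 28.3%), as did leaving out CC9 mus replicate 2 (360 unadjusted, 19.7% against 22.2%). Without CC9 mus replicate 3 there were 4 calls (0.219%, against 0.140%), and without CC9 mus replicate 1 there were 671 (36.7%, against 40.4% of all probes), which included all 70. With the arrays scaled to the same spread there were 248 (13.6%, against 12.1%), and with scan period as a block as well there were 550 (30.1%, against 21.4%), a larger share than over all probes. The balance of directions changed too. Without replicate 1 of CC9 mus 437 were higher (23.9%, against 19.8% of all probes) and 234 lower (12.8%, against 20.6%). With equal spread 86 were higher (4.70%, against 5.67%) and 162 lower (8.86%, against 6.39%), and with scan period as a block as well 79 (4.32%, against 5.61%) and 471 (25.8%, against 15.8%).

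Of the 6 largest rises in CC9 mus with values on all arrays and no overlap, 1 had IP and input well above background on all 12 arrays. This probe, A_68_P20233073 at chr1:53763599-53763643, read 0.56, 2.46 and 4.03 in CC9 mus and −0.68 to −0.10 (median −0.20) on the 9 other arrays. It was 6.48-fold higher in CC9 mus, by 2.70 ± 0.52 (log2, SE; adjusted p = 0.0405 in limma), and the other probe of its locus was higher by 2.13 (adjusted p = 0.0426). The log2 difference was 3.59 without CC9 mus replicate 1, 1.86 without CC9 mus replicate 3 (adjusted p = 0.0711) and 1.43 with normexp (adjusted p = 0.104). Over its alternatives, the adjusted p ran from 0.00046 to 0.171.

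Signal of the 5 other rises was not well above background on some arrays, so values are given with no fold. The probe A_68_P21662569 at chr2:136213227-136213277 read 0.44, 2.48 and 2.67 in CC9 mus and −2.13 to −0.23 on the others, where its IP was well above background on 0 of 9. That at chr3:5860290-5860349 read 2.29, 4.57 and 4.73 against 0.38 to 2.10, with input not well above background on any array. Those at chr18:37120061-37120112 (−0.15, 1.36 and 3.03 against −2.74 to −0.41), chr1:34734831-34734881 (0.38, 1.80 and 3.32 against −1.61 to −0.050) and chr11:58762878-58762935 (−0.31, 0.70 and 1.62 against −2.43 to −0.75) had sufficient input on all arrays, and IP well above background on 4, 6 and 5 of the 9 divergent-line arrays. In all 6, CC9 mus replicate 1 was the lowest of its line.

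At 5 of the 6 largest falls in CC9 mus, chosen in the same way, the probe was above 2 on all 9 arrays of the divergent lines. How often this held among all called falls was not counted. CC9 mus replicate 1 had the narrowest spread of all arrays (SD 0.53 over all probes), and its part in these falls was not tested. The widest of the 5 falls was at A_68_P23331196 (chr4:135472765-135472809). It read 0.57, 1.73 and 2.48 in CC9 mus and 3.23 to 5.50 (median 4.01) on the 9 others. It was 5.74-fold lower, by −2.52 ± 0.46 (log2, SE; adjusted p = 0.0405 in limma). A_68_P26135495 (chr8:108228498-108228542) read 0.12, 1.23 and 1.58 against 2.20 to 4.66 (median 3.23), 5.06-fold lower with an adjusted p of 0.0405. The other probe of its locus was lower too, by −1.96 (adjusted p = 0.0405).

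The probe at chr1:75381669-75381713 read 0.46, 2.38 and 2.78 against 2.87 to 4.67 and was 4.90-fold lower (adjusted p = 0.0413 in limma), and its partner at chr1:75381740-75381784 was lower by −3.31 (adjusted p = 0.0405), with a value missing on CC9 mus replicate 3. The single probe at chr17:27061065-27061109 read 0.036, 1.90 and 2.39 against 3.01 to 4.80 and was 4.13-fold lower (adjusted p = 0.0434 in limma). At these 4 probes IP and input were well above background on all arrays. Their log2 differences were −2.01, −1.91, −1.59 and −1.34, in the order given, without CC9 mus replicate 1, and with normexp they were −1.92, −1.43, −1.65 and −1.54 and not called. With equal spread they were wider, at −3.78, −3.37, −3.67 and −3.37, and with scan period as a block as well they were −5.30, −4.28, −4.13 and −4.45, called in both. The remaining ones have no fold. That at chr14:119011171-119011230 read 0.20, 1.38 and 2.63 against 2.85 to 4.94 with input well above background on 7 of 12 arrays, and that at chr19:44825072-44825116 read −1.46, −4.50 and −1.57 against −0.96 to 0.51 with IP well above background on 9 of 12. At 5 of the 6 falls, all but that on chr19, CC9 mus replicate 1 was the lowest array of the 12. None of the 12 named probes turned direction in any of the 20 other settings, but 169 of 237 values lost the call, among them all those with slide alone or scan period alone as a block. A_68_P20233073 stayed higher by 2.82 with slide as a block (adjusted p = 0.0655 in limma) and 2.65 with scan period as a block (adjusted p = 0.171), and A_68_P23331196 lower by −2.43 and −3.11 with the same adjusted p.

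Of the 70 called probes, 61 (87.1%) were in 56 loci of 2 probes, which held 81.1% of the short-locus probes. Both probes were called in 5 of these loci (8.93%), in the same direction in each. Of successive probes in loci of 3 or more with at least 1 called, both were called in 14.6%, in the same direction in 99.6% of these pairs. In the other 51 loci the partner had the same direction in 37 (72.5%), against 91.3% of such pairs in loci of 3 or more. The pairs were not alike in spacing, with a median gap of 138 bp in loci of 2 probes and 74 bp in loci of 3 or more. In the latter a probe can also enter more than 1 pair. Where neither probe was called, the direction was the same in 66.7% of the 2-probe loci and 69.2% of the pairs in longer ones.

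With each divergent line compared with CC9 mus on its own, limma called 0 short-locus probes, and 0% of all probes, in any of the 3 comparisons, which share the CC9 mus arrays. At an unadjusted p of 0.05 there were 294 for CC9 spretus (16.1%, against 17.1% of all probes), 361 for CC9 dunni (19.7%, against 23.4%) and 308 for CC9 pahari (16.8%, against 20.7%). Without CC9 mus replicate 1 there were 412, 572 and 511 calls in the same order (22.5%, 31.3% and 28.0%, against 27.0%, 34.0% and 31.7% of all probes), and without CC9 mus replicate 3 there were 0, 2 and 0 (0%, 0.109% and 0%, against 0%, 0.0609% and 0%). With arrays of the same spread there were 4, 179 and 66 (0.219%, 9.79% and 3.61%, against 0.178%, 9.16% and 3.95%). Adding scan period as a block to equal spread gave 224, 500 and 324, larger shares than over all probes (12.3%, 27.4% and 17.7%, against 7.86%, 19.5% and 14.6%). With replicate number as a block there were 0, 21 and 0, and the 21 were 1.15% of the short-locus probes, against 1.18% of all probes.

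The probes nearest to a call did not pass. For CC9 spretus the smallest p was at chr16:31274722-31274778, with −2.43, −1.37 and −2.15 against −0.11, −0.26 and 0.038 in CC9 mus (adjusted p = 0.198 in limma), followed by the chr8 probe above (3.09, 3.23 and 4.66, adjusted p = 0.201). For CC9 dunni it was at chr1:75381740-75381784, with 5.06, 5.08 and 4.95 against 0.25 and 2.32 in CC9 mus, where replicate 3 was missing (adjusted p = 0.0972 in limma), and again the chr8 probe (3.50, 3.54 and 3.89, adjusted p = 0.0972). For CC9 pahari it was at chr6:97155509-97155553, with 0.081, 0.29 and 0.024 against −0.91, −2.05 and −1.70 (adjusted p = 0.12 in limma), and at chr17:45700740-45700784, with 2.52, 2.51 and 1.71 against 0.21, −0.16 and 0.98 (adjusted p = 0.12). All 6 pairs of groups were apart without overlap, a pattern that 11.8%, 17.2% and 15.2% of short-locus probes had in the comparisons of CC9 spretus, CC9 dunni and CC9 pahari, against 13.1%, 19.7% and 18.1% of all probes. IP of the chr16 probe was well above background on 4 of 12 arrays.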

How the data were processed

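DNA methylation was measured by MeDIP in 12 samples, 3 per line, on Agilent CpG island arrays. The authors used Agilent Feature Extraction (11.0.1.0 in the submitters' notes, 11.0.1.1 per the file headers). The deposited signals are in units of intensity, background-subtracted, detrended and dye-normalised. Ratios deposited beside them are log10 values of IP over input and are not centred.

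Ratios were computed as log2(IP/input) from the processed intensities of 88737 probes. Outlier spots were set to missing before centring on the array median. Positions are on mm9, and the reference at hand, GRCm38, was not used. Gene lists were not counted, because probes and genes are not paired in the files.

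Differences between short and other loci were tested by exact permutation over arrays, two-sided. Single probes were tested with limma 3.58.1 (R 4.3.3), lmFit and eBayes on 4 line means, with Benjamini-Hochberg adjustment over all probes and a threshold of 0.05, after a test on simulated data. Python 3.11.15, numpy 2.4.6, pandas 2.3.3 and scipy 1.17.1 were used.

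Loci were named by rule. Among short loci with input well above background on 12 arrays, these were the 6 with the highest minimum and the 6 with the lowest maximum. Among limma calls with values on all arrays and no overlap, they were the 6 largest rises and 6 largest falls, 1 per locus, or, in a comparison with no call, the 2 probes with the smallest p. The 2 loci whose paired probes differed most were added. The members, lists and rules were chosen with earlier results of these data known.

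Alternatives were normexp (offset 50), arrays scaled to the same median absolute deviation, ratios not centred, the deposited ratios, dim input left out, joins of 500 and 2000 bp, loci of 1 probe, locus means, replicate number, slide or scan period as a block, and leaving out each array. Slide was fitted as a correlation shared by arrays of the same slide, and replicate number and scan period as fixed terms of the model. Single scan periods, loci of 2 probes, scan period as a block with equal spread, and counts of line means without each array in turn were added after seeing the data.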

Additional observations from a re-analysis of the deposited data

How the results depend on the processing

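The higher median and the larger share above 2 of short loci kept direction and call in all settings run. The median difference ran from 0.22 with normexp to 0.95 for loci of 1 probe (0.45 to 0.54 on leaving out 1 array), and the share from 7.40 to 24.0 points (13.3 to 14.6). The difference in the share below −2 was −0.394 with normexp (exact permutation p = 0.145), −0.868 with a join of 500 bp, −0.794 in the earlier and −1.74 in the later scan period, and passed the test in none of these. It reversed to 0.709 with locus means and ran from −1.40 to −0.808 on leaving out 1 array.

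For CC9 mus against the divergent lines, the difference in medians reversed to −0.036 with equal spread, passed the test with locus means (0.34, exact permutation p = 0.0455) and ran from 0.062 to 0.54 on leaving out 1 array. That in the share above 2 reversed to 0.172 with normexp and to 2.86 without CC9 mus replicate 1, passed with equal spread (−4.88) and ran from −4.16 to 2.86 on leaving out 1 array.

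Calls of CC9 mus against the rest numbered 70 and became 0 with slide or scan period as a block or in the later period alone, 1 with normexp, 248 with equal spread, 550 with scan period as a block and equal spread (30.1% of short-locus probes, against 21.4% of all), and 0 to 671 on leaving out 1 array. Against CC9 mus alone, equal spread gave 4, 179 and 66 calls for CC9 spretus, CC9 dunni and CC9 pahari, scan period as a block with equal spread gave 224, 500 and 324 (12.3%, 27.4% and 17.7%, against 7.86%, 19.5% and 14.6%), and leaving out 1 array gave 0 to 412, 0 to 572 and 0 to 511. The cause of these changes was not tested.

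On leaving out 1 array, line means above 2 in CC9 mus numbered 288 to 637 (437 with all arrays), those called in CC9 mus alone 36 to 256 (107), and probes above 2 on every array 69 to 207 (69). Line means below −2 numbered 6 to 108 in CC9 mus (26), 1 to 47 in CC9 spretus (16), 4 to 32 in CC9 dunni (13), 3 to 11 in CC9 pahari (3) and 31 to 123 in at least 1 line (48). The shares of all probes ran, in the same order, from 4.28% to 17.7%, 1.29% to 11.8%, 0.578% to 2.70%, 0.779% to 10.8%, 0.236% to 3.46%, 0.248% to 2.74%, 0.124% to 0.533% and 2.25% to 11.6%.

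The replicate numbers were not taken to pair the samples, because not all pairs with CC9 mus deviated together. After line means were removed, correlations between arrays of the same number ran from −0.38 to 0.54 (median 0.13, against −0.11 for other pairs), 12 of 18 over 0.1. The 9 among divergent lines ran from 0.12 to 0.54, and their replicates 3 shared the later scan period. In all, 5 of 12 arrays correlated best with their own number. With replicate number as a block there were 146 calls for CC9 mus against the rest (7.99% of short-locus probes, against 8.42% of all), all 70 among them, and 21 for CC9 dunni (1.15%, against 1.18%). Signal over background limits low values, since IP at the lowest loci was often not well above it.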
